A study of Mus musculus with 8 samples.

Results

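The adhesion of thymocytes to clone E6, a derivative of the mouse medullary thymic epithelial cell (mTEC) line mTEC 3.10 in which Aire was mutated, was described here over all genes. The comparison was between the 2 E6 libraries after co-culture and the 2 E6 libraries before it, which are 4 of the 8 libraries of the series. The genes were divided by their level before adhesion. Of 24052 genes listed, 13395 had a mean under 1 CPM, the counts of a gene per 1e6 counts on genes in the 2 E6 libraries before adhesion, and 10657 had a mean of 1 CPM or more. A filter on low counts left 11672 genes for testing, of which 1015 were under 1 CPM before adhesion and 10657 were at 1 CPM or more. A gene of the first class passed that filter mainly through libraries in which it was high, so counts over that class are given as a description.

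All 8 libraries came from mTEC 3.10, a C57BL/6 line, at passage 2. The E6 libraries carry the genotype label Aire +/-, whereas the study's methods describe 1 CRISPR-Cas9 clone with both Aire alleles mutated, so that any property of E6 may belong to that clone. In the libraries after adhesion, thymocytes from C57BL/6 mice, females by the study's methods, had been left on the mTECs for 12 h at 50 thymocytes per mTEC. Adherent thymocytes were washed off with PBS before the mTECs were trypsinised for RNA. The libraries before adhesion had no co-culture by their titles and source names, although the protocol text of the E6 libraries before adhesion mentions one. In E6, replicate 1 had been cultured for 24 h and replicate 2 for 12 h in both conditions. The wild-type line (WT) had 2 libraries before and 2 after adhesion and is used here only for comparison. Both WT libraries before adhesion had been cultured for 12 h, whereas after adhesion replicate 1 had 12 h and replicate 2 had 24 h. The WT comparison thus mixes adhesion with culture time in part, unlike that of E6. After adhesion, the same replicate number stands for other hours in WT than in E6. In E6 in both conditions and in WT after adhesion, the 2 replicates differed in culture hours. The spread between libraries behind the p-values thus includes culture time. The labels do not say that the replicates were independent experiments. Between the 2 WT libraries before adhesion the spread may be technical.

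Medullary thymic epithelial cells present self-antigens to developing thymocytes, and Aire controls much of that antigen expression. The contact is known to run in both directions, since lymphotoxin, RANK ligand and CD40 ligand carried by thymocytes signal to the mTEC through the NF-kB pathway. In that pathway, inhibitors of the IkB family hold NF-kB dimers in the cytosol, and NF-kB in turn induces its own inhibitors. Cells also adjust to the supply of amino acids through the factor ATF4, whose targets make and import amino acids and charge tRNAs.

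The E6 libraries held between 14490950 and 18915442 counts on genes, so that 3 counts stood for 0.159 to 0.207 CPM, which is the floor used here for genes at 0. Between 75.7% and 77.7% of the counted reads lay on genes in the E6 libraries, against 66.7% in replicate 1 of WT after adhesion and 76.2% to 78.8% in the other WT libraries. That WT library stood apart from the others in its whole profile as well. It entered the shared estimate of spread, and the common biological coefficient of variation was 0.159 over 8 libraries and 0.0516 over the 4 E6 libraries alone. Aire itself had 0 counts in both E6 libraries before adhesion and 0 and 3 counts after it. It had 0 counts in both WT libraries before and 0 and 3 after, so its level could not check the genotype labels. Epithelial genes were level in E6. Epcam measured 572 and 588 CPM before and 591 and 552 CPM after adhesion, and Cdh1, the gene of E-cadherin, measured 849 and 826 before and 845 and 850 after. The mTEC markers Fezf2 and Cd80 were under 0.25 CPM in each of the 4 E6 libraries.

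In the E6 libraries, 234 mRNAs differed after thymocyte adhesion from before it, and nearly all of them were higher. How much of this came from RNA of remaining thymocytes was not tested. With edgeR's quasi-likelihood test over the 8 libraries, at an FDR (Benjamini-Hochberg) under 0.05 and a fold change of at least 1.5, 225 mRNAs rose, 1.93% of the genes tested, and 9 fell, 0.0771%. Of the rises, 188 were among genes under 1 CPM before adhesion, 18.5% of the 1015 tested in that class, where no gene fell. Among genes at 1 CPM or more before adhesion, 37 rose, 0.347% of the 10657 tested, and all 9 falls, 0.0845%, lay there. The median log2 fold change of all tested genes was -0.02. All 234 DE mRNAs had both libraries after adhesion on the same side of both libraries before it. Of the tested genes at 1 CPM or more before adhesion, 29.8% had both libraries after it above both before and 22.5% below. Of the 1015 tested genes under 1 CPM, 612 had no overlap in either direction. The 234 also moved the same way in the pair of 24 h cultures and in the pair of 12 h cultures, which groups without overlap largely fix in advance. Fitted on the 4 E6 libraries alone, 537 mRNAs were called and included these 234. With any 1 of the 4 E6 libraries left out, the calls were not kept. Each of the 234 kept its direction, but they were called on these same libraries without overlap, so this was no separate support.

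**Figure D1:**
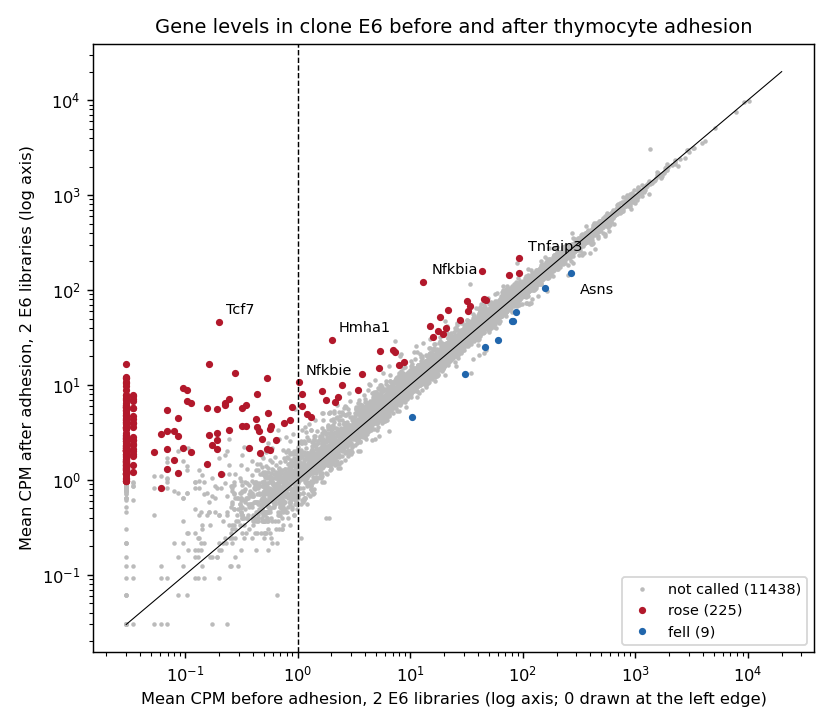
Mean CPM of each tested gene in the 2 E6 libraries before (x axis) and the 2 after thymocyte adhesion (y axis), both on log axes, with genes at 0 before drawn at the left edge. The dashed line marks 1 CPM before adhesion; red points are the 225 rises and blue points the 9 falls. The 188 rises left of the line spread far above the diagonal. Of the 37 rises right of it, Hmha1, Nfkbie and Nfkbia among others lie well above the diagonal, and the 9 falls lie closer to it.

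The genes under 1 CPM before adhesion that rose were led by genes of T lineage cells. Tcf7, which encodes a transcription factor of early T cells, had 0.138 and 0.264 CPM before and 52.0 and 40.2 CPM after adhesion. Dntt, the terminal transferase of immature lymphocytes, had 0 counts before and 19.2 and 13.7 CPM after, at least 90.0-fold higher against a floor of 3 counts per library. Thy1, a surface glycoprotein of thymocytes, went from 0 counts to 13.6 and 10.1 CPM, at least 64.9-fold higher. Both libraries after adhesion thus lay far above both libraries before it for these genes, and they did so again for Bcl11b, a factor of T cell commitment, with 0 counts before and 12.0 and 12.1 CPM after. The others among the 10 highest were Ptprc, the CD45 antigen, with 18.7 and 14.4 CPM after adhesion, Cd8b1, a chain of the CD8 coreceptor, with 12.3 and 8.96 CPM, and Glcci1, Fyb, Kif21b and Dock2, with means of 10.6 to 13.3 CPM. By edgeR's test the FDR of these 10 genes lay at or below 0.0153.

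Of 30 genes on a list of thymocyte lineage and T cell receptor genes that were analysed here, 24 were tested, 20 of them under 1 CPM before adhesion, and 16 of those 20 rose, against 18.5% of all tested genes of that class. The other 4 tested members were already expressed by E6, and of these only Myb was called, from 7.04 and 6.93 to 23.2 and 23.3 CPM, a log2 fold change of 1.68 ± 0.25 (SE). Of a list of 20 activation markers of thymocytes 9 were tested. Of these, 5 were already at 1 CPM or more in E6 before adhesion, so they do not report on thymocytes alone, and none was called. Of the 4 under 1 CPM, 1 rose, against 18.5% of that class. This was Ltb, the gene of lymphotoxin beta, from 0 counts to 2.02 and 2.27 CPM. Cd69 was at 0.245 and 0.184 CPM after adhesion, and Tnfsf11 and Cd40lg, which encode RANK ligand and CD40 ligand, had 0 counts in all 4 E6 libraries. In bulk libraries more cells of a type and more RNA per cell cannot be told apart.

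Genes of other blood cells rose beside those of thymocytes. On a list of macrophage and dendritic cell genes, 12 of 18 were tested, 9 of them under 1 CPM before adhesion, and 6 of those 9 rose, against 18.5% of that class. Lyz2, the lysozyme of macrophages, had 0 counts before and 6.68 and 5.40 CPM after adhesion, and C1qa, a subunit of complement C1q, had 0 counts before and 2.51 and 1.47 CPM after. Csf1r, the receptor of macrophage colony-stimulating factor, was not informative, since E6 had 54.0 and 41.2 CPM of it before adhesion. No gene on the lists of B cells and of red blood cells was abundant enough to be tested.

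Of 7 Y-linked genes looked at, 4 had counts after adhesion and none before it, and Zfy1, Zfy2 and Sry had 0 counts in all 8 libraries. Xist, the RNA that silences an X chromosome in female cells, had 853 and 846 CPM in E6 before and 965 and 1028 CPM after adhesion. Ddx3y, Eif2s3y, Kdm5d and Uty, genes of the Y chromosome, had 0 counts in each of the 4 libraries before adhesion, E6 and WT alike. After adhesion Ddx3y had 2.45 and 1.84 CPM in E6 and Eif2s3y had 1.04 and 1.66 CPM, and both were called. All 4 of these Y-linked genes had counts in both E6 libraries and both WT libraries after adhesion. Their summed level was 5.08 and 5.52 CPM in E6 and 1.46 and 0.794 CPM in WT after adhesion. The study's methods name female donors, and the sex of the donor thymuses is not given in the labels.

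**Figure D2:**
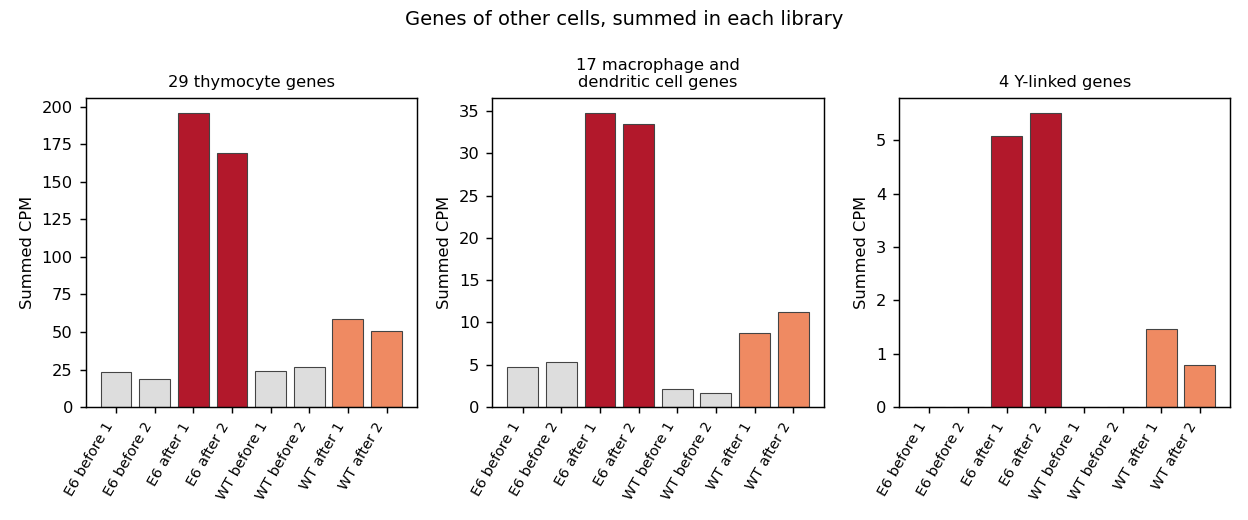
Summed CPM per library (y axis, from 0) of 29 thymocyte lineage genes other than Tcf7, of 17 macrophage and dendritic cell genes other than Csf1r, and of 4 Y-linked genes, with 1 bar for each of the 8 libraries. In each panel both E6 libraries after adhesion stand above both WT libraries after adhesion, and the Y-linked genes are at 0 in the 4 libraries before it.

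The listed thymocyte genes had a higher summed level in both E6 libraries than in both WT libraries after adhesion, a difference that was not tested. In the study's adhesion assay E6 bound fewer thymocytes per mTEC than WT. That assay counted cells, which is another measure than RNA in libraries made after a wash. The 29 thymocyte genes other than Tcf7 summed to 196 and 169 CPM in E6 after adhesion, against 23.3 and 19.0 before, and to 58.5 and 50.7 CPM in WT after adhesion, against 24.3 and 26.4 before. The increase in E6 was thus 5.52 times that in WT. It was 4.70 times for the Y-linked genes and 3.60 times for the 17 macrophage and dendritic cell genes other than Csf1r. The 29 thymocyte genes include Myb, which both lines already expressed. Its own increase was 16.3 CPM in E6 and 8.33 CPM in WT. The 188 rises under 1 CPM summed to 826 and 699 CPM after adhesion in E6 and to 18.6 and 14.7 before, an increase 6.03 times that in WT, where they summed to 182 and 162 CPM after. They were chosen for their rise in E6. In WT, 175 of the 188, or 93.1%, had both libraries after adhesion above both before, against 37.7% of all tested genes of that class. The difference of the adhesion effect between E6 and WT did not pass the threshold for any gene in edgeR's test, with 297 genes at an unadjusted p under 0.05 and 3 called by DESeq2.

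Of the 188, 31 stood on any of the lists used, and the others were not sorted by cell type. Of the 31, 4 were on the list of epithelial cytokines. Cxcl2, a chemokine for neutrophils, measured 0.552 and 0.529 CPM before and 3.61 and 6.56 CPM after adhesion, and Il1a, the gene of interleukin 1 alpha, measured 0.690 and 1.00 CPM before and 4.10 and 4.42 after. Il1b measured 0.138 and 0.0529 CPM before and 2.57 and 1.72 after, and Cxcl3 had 0 counts before and 1.96 and 2.45 CPM after. These cytokines are made by macrophages as well as by epithelium. The NF-kB pathway members Birc3 and Traf1 also rose from under 1 CPM, Birc3, an inhibitor of apoptosis, to 3.61 and 3.80 CPM, and Traf1, an adaptor of TNF receptors, to 1.84 and 1.72 CPM. H2-Aa and H2-Ab1, the chains of an MHC class II molecule, had 0 counts before and between 1.10 and 1.47 CPM after adhesion. Of the 188, 7 were at 1 CPM or more in WT before adhesion, among them Zfp704, chosen after its values were seen, with 17.0 and 15.6 CPM in WT before and 1.53 and 1.10 CPM in E6 after.

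The boundary at 1 CPM divided like genes. Nfkbie lay just above it, with 1.04 and 1.00 CPM before and 11.03 and 10.43 after adhesion, as did Wdr78 with 0.759 and 1.43 before and 6.43 and 5.46 after. Neurl3 lay just below it, with 1.24 and 0.529 CPM before and 5.27 and 6.44 after, and so did Il1a.

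Among genes that E6 already expressed, several genes of the IkB family and other regulators of the NF-kB pathway rose. Nfkbia, which encodes IkB alpha, had 13.2 and 12.7 CPM before and 84.7 and 160 CPM after adhesion. Its log2 fold change was 3.19 ± 0.44 (SE, FDR = 0.0163 by edgeR), and both values after adhesion exceeded both before, although they were themselves far apart. Nfkbie, which encodes IkB epsilon, had a log2 fold change of 3.34 ± 0.28. Nfkbiz, which encodes the nuclear member IkB zeta, measured 48.9 and 37.5 CPM before and 152 and 164 CPM after. Tnfaip3, the deubiquitinase A20 that limits NF-kB signalling, measured 102 and 83.2 CPM before and 212 and 220 CPM after, and its partner Tnip1 measured 46.3 and 43.8 before and 81.0 and 80.9 after. All 5 thus had groups that did not overlap, as had every DE mRNA, at 1.74-fold to 10.1-fold. Nfkbia is at chr12:55489409-55492647 and Tnfaip3 at chr10:19000910-19015410 (GRCm38, RefSeq), both protein coding.

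Of 16 NF-kB subunit and feedback genes at 1 CPM or more before adhesion, these 5 rose, against 0.347% of the class. In all, 15 of the 16 had both libraries after adhesion above both before, against 29.8% of the tested genes of that class, and the median log2 fold change was 0.60 beside -0.03 for the class. The subunit genes were not called. Nfkb2 measured 92.7 and 86.2 CPM before and 188 and 199 after (FDR = 0.110), Relb measured 9.66 and 7.08 before and 21.3 and 21.4 after (FDR = 0.203), and Rela had a log2 fold change of 0.17. With the 4 E6 libraries alone, where 1.7% of the genes of that class rose, 9 of the 16 did, Nfkb2 and Relb among them. In WT the median of the 16 was 0.45, and 10 had both libraries after adhesion above both before, against 15.5% of the class. The thymocyte and macrophage genes described above rose in the same libraries, and their part in these values was not tested.

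Genes that NF-kB is known to induce in epithelium moved less evenly. Of 11 surface and acute phase genes at 1 CPM or more before adhesion 2 rose, against 0.347% of the class, and 9 had groups that did not overlap on the higher side, against 29.8%. C3, the central complement component, measured 18.5 and 18.3 CPM before and 52.1 and 51.1 after, a log2 fold change of 1.44 ± 0.12. Vcam1, an adhesion molecule for integrins of lymphocytes, measured 2.21 and 2.06 CPM before and 5.39 and 7.98 after. Icam1, another ligand of lymphocyte integrins, measured 1.38 and 1.16 CPM before and 3.19 and 4.66 after (FDR = 0.119). Irf1 measured 7.94 and 6.82 before and 20.4 and 37.5 after (FDR = 0.0520), whereas Ptgs2, at 634 and 684 CPM before and 623 and 695 after, was level. Among 9 epithelial cytokines at 1 CPM or more, Lif, a cytokine of the interleukin 6 family, alone was called, from 85.6 and 64.6 to 150 and 139 CPM. Outside these lists Il23a, a subunit of interleukin 23, measured 8.56 and 7.40 CPM before and 16.9 and 15.7 after, and Ikbke, an IkB kinase-related kinase, measured 23.3 and 20.2 before and 62.6 and 61.6 after.

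**Figure D3:**
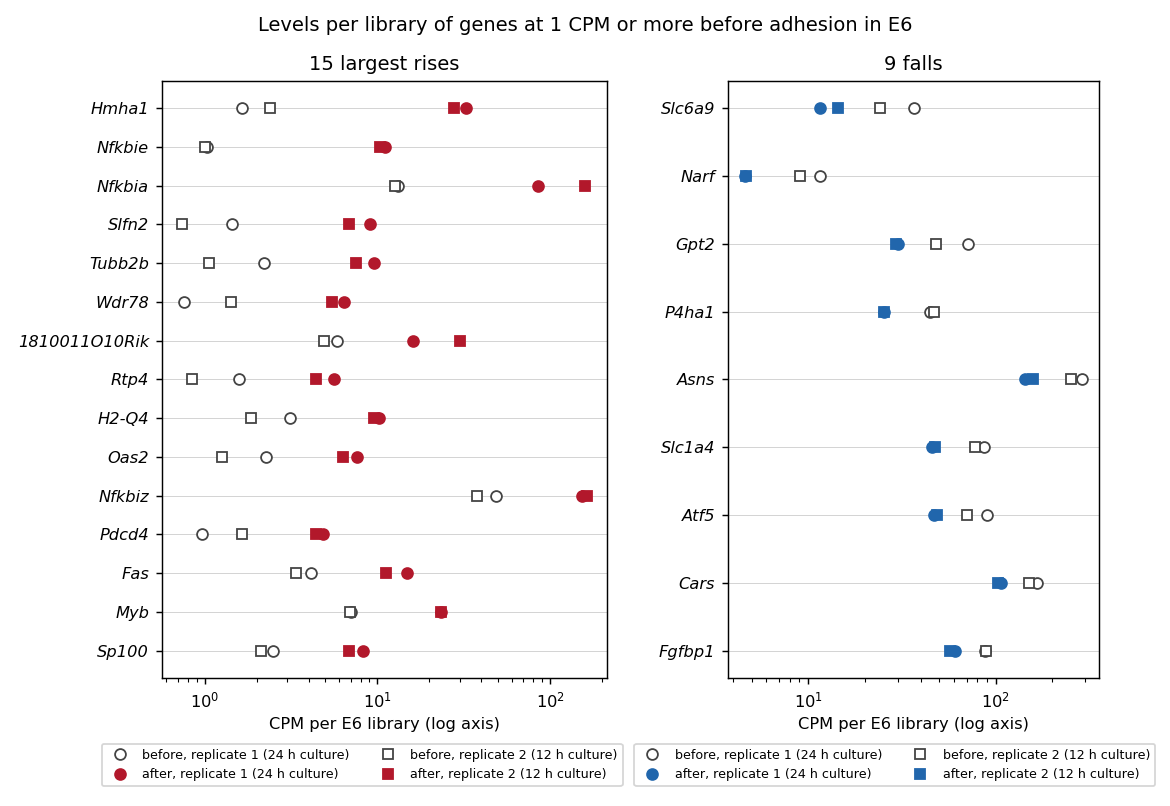
CPM in each E6 library (x axis, log) of the 15 largest rises and the 9 falls among genes at 1 CPM or more before adhesion. Open symbols are libraries before and filled symbols libraries after adhesion, circles the 24 h and squares the 12 h cultures. The 24 genes were picked among calls without overlap, so open and filled symbols lie apart by that rule. The filled symbols of Nfkbia and 1810011O10Rik are the widest apart among the rises.

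The promoter windows of 4 called genes are shown because they hold letters that match the sites of NF-kB or of ATF4. The windows run from 250 bases before to 50 bases after an annotated start (RefSeq, GRCm38.p6, minus strand for all 4), in the direction of the gene, with the matched letters in capitals. They were chosen for the match among the DE mRNAs, after the values were seen. For NF-kB the letters GGANTTTCC were searched, and for the amino acid response TGATGNAA, on both strands.
Nfkbia, chr12:55492598-55492897: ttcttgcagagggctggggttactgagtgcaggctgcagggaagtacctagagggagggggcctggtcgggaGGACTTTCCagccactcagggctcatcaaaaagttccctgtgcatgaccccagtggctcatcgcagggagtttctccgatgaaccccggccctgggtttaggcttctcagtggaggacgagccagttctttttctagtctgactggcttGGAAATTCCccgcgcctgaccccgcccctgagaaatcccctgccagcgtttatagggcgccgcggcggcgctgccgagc
Tnfaip3, chr10:19015361-19015660: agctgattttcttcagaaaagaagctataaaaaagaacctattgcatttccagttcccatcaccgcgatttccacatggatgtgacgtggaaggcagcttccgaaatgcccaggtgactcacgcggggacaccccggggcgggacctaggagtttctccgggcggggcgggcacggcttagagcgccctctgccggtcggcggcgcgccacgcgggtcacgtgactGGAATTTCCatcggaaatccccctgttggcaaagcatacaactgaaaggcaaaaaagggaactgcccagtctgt
Asns, chr6:7693160-7693459: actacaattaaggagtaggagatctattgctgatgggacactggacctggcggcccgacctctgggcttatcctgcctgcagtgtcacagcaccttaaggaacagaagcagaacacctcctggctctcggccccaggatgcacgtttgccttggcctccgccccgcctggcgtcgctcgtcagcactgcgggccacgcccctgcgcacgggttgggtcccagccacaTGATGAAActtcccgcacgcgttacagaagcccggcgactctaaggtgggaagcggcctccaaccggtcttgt
Slc1a4, chr11:20332664-20332963: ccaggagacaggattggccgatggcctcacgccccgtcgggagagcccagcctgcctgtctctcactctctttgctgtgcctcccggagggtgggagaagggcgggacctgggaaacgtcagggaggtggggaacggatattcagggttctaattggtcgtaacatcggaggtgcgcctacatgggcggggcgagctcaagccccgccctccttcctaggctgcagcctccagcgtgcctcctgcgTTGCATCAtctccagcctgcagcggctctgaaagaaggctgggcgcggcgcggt

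Of the 37 rises at 1 CPM or more before adhesion, 23 had a promoter window in that table, and 3 of these, Ifngr2, Nfkbia and Tnfaip3, held the NF-kB letters, against 1.45% of all genes with a window. Of the 9 falls 8 had a window and 2, Asns and Slc1a4, held the amino acid response letters, against 4.51% of all genes, as did 3 of the 23 rises, Apoe, Frmd4b and Tnfaip3. The letters GAAANNGAA of the interferon response were held by 4 of the 23 rises, Apoe, Ddx58, Nfkbia and Pnrc1, and by none of the 8 falls, against 9.76% of all genes. Nfkbia held 2 matches to the NF-kB letters, 1 on each strand. A match describes the letters of these windows and is not evidence of binding.

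Interferon-stimulated genes that E6 already expressed were higher after adhesion throughout the list, and most of them were not called. All 25 members at 1 CPM or more before adhesion had a positive log2 fold change, against 41.6% of the class, and 23 had groups that did not overlap, against 29.8%. Their median was 0.67, and 3 rose, against 0.347%. Oas2, a synthetase of the antiviral 2-5A pathway, measured 2.28 and 1.27 CPM before and 7.60 and 6.32 after. Irf9, the DNA-binding subunit of the interferon-activated complex, measured 20.8 and 14.6 CPM before and 37.2 and 37.7 after, and Ddx58, the RNA sensor RIG-I, measured 45.2 and 48.5 before and 79.4 and 78.5 after. The libraries before adhesion differed among themselves for several members, as for Ifit1 at 3.17 and 0.529 CPM, Isg15 at 1.73 and 0.476 CPM and Oas3 at 7.45 and 2.33 CPM. Each of these was higher in the 24 h culture. With the 4 E6 libraries alone 12 of the 25 rose, against 1.7% of the class. In WT the median of the 25 was 0.76 and 16 had both libraries after adhesion above both before, against 15.5%.

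Some rises stood on none of the lists. Rtp4, which interferon induces, measured 1.59 and 0.846 CPM before and 5.57 and 4.42 after, and Sp100, a component of nuclear bodies, measured 2.48 and 2.11 before and 8.21 and 6.87 after. Parp9 measured 28.6 and 27.0 CPM before and 48.5 and 47.6 after. Ifngr2, a chain of the interferon gamma receptor, measured 20.8 and 20.5 before and 41.5 and 37.8 after. Of 15 genes of MHC class I presentation at 1 CPM or more before adhesion, 13 had both libraries after adhesion above both before, against 29.8% of the class, with a median log2 fold change of 0.31, and 1 rose, against 0.347%. That was H2-Q4, at 3.11 and 1.85 CPM before and 10.3 and 9.57 after, whose reads may be shared with near-identical class I genes. Tap2, a subunit of the peptide transporter, measured 5.52 and 3.28 CPM before and 11.3 and 8.59 after (FDR = 0.310).

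The largest rise from 1 CPM or more was that of Hmha1, a minor histocompatibility antigen gene of blood cells. It had 1.66 and 2.38 CPM before and 32.5 and 27.6 CPM after adhesion, a log2 fold change of 3.83 ± 0.44. In WT its groups overlapped, at 2.86 and 2.15 CPM before and 2.33 and 6.75 after. Slfn2 measured 1.45 and 0.740 CPM before and 9.13 and 6.87 after. In WT, Nfkbia measured 18.0 and 14.7 CPM before and 43.4 and 106 after, so that the WT libraries after adhesion were far apart. Summed over the 37 rises, the level went from 772 and 692 to 1686 and 1809 CPM in E6 and from 836 and 825 to 1197 and 1404 CPM in WT. Itgb2, the beta 2 integrin of leukocytes, measured 3.24 and 3.59 CPM before and 8.45 and 9.08 after, and Apoe, which macrophages also make, measured 7.38 and 7.35 before and 21.8 and 22.2 after. Genes of the 37 that thymocytes or macrophages are known to express rose in the same libraries as their markers, and how much of each rise came from those cells was not tested.

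Fas, the death receptor, and Trp53inp1 were the p53 targets called among 21 at 1 CPM or more before adhesion, against 0.347% of the class that rose. Fas measured 4.14 and 3.38 CPM before and 14.8 and 11.2 after, and Trp53inp1 measured 6.90 and 3.65 before and 14.8 and 15.3 after. The median of the 21 was -0.01, and Cdkn1a, the p21 inhibitor of the cell cycle, measured 106 and 83.8 CPM before and 97.1 and 97.6 after. Zfp36, which destabilises cytokine mRNAs, was the member of the immediate early list that rose, against 0.347% of the class. It went from 32.8 and 31.3 to 75.5 and 77.1 CPM. Of 24 such genes 12 had a positive and 12 a negative log2 fold change, with Myc at 497 and 395 CPM before and 470 and 449 after. Tubb2b, a beta tubulin, and Pdcd4, an inhibitor of translation, also rose, Tubb2b from 2.21 and 1.06 to 9.56 and 7.55 CPM and Pdcd4 from 0.966 and 1.64 to 4.84 and 4.42 CPM. 1810011O10Rik, which RefSeq names Tcim, rose from 5.87 and 4.92 to 16.0 and 30.1 CPM. The others of the 37, which included Klf10, Slc43a2, Frmd4b, Slc7a2, Mex3b, Ntn1 and Pnrc1, had log2 fold changes between 0.67 and 1.44.

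Of the 9 falls, 5 were on the list of ATF4 targets, which held 40 of the 10657 genes tested in that class. Slc1a4, outside the list, is a transporter of neutral amino acids. Asns, the asparagine synthetase, measured 290 and 251 CPM before and 144 and 159 after adhesion, a log2 fold change of -0.88 ± 0.12 (FDR = 0.0160). Slc6a9, a glycine transporter, measured 36.9 and 24.3 CPM before and 11.6 and 14.4 after, the largest fall at a log2 fold change of -1.28 ± 0.22. Gpt2, a mitochondrial alanine aminotransferase, measured 71.7 and 48.3 before and 30.3 and 29.4 after. Atf5, a relative of ATF4, measured 90.2 and 70.6 before and 46.7 and 48.6 after, and Cars, the cysteinyl-tRNA synthetase, measured 166 and 150 before and 107 and 103 after. Slc1a4 measured 87.3 and 77.9 CPM before and 46.0 and 47.5 after. None of these groups overlapped, as for every DE mRNA, and in each case the value before adhesion was higher in the 24 h than in the 12 h culture. Asns lies at chr6:7675165-7693209 and Slc6a9 at chr4:117835258-117869305 (GRCm38), both protein coding.

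All 40 ATF4 targets tested had a negative log2 fold change, against 58.4% of the class, and 34 had both libraries after adhesion below both before, against 22.5%. Their median was -0.54, and their values ran from -2.13 to -0.02. Atf4 itself measured 423 and 392 CPM before and 277 and 328 after (FDR = 0.498). The serine pathway went the same way, with Psat1 at 442 and 434 CPM before and 271 and 273 after (FDR = 0.165) and Psph at 39.0 and 33.9 before and 19.4 and 18.1 after (FDR = 0.123). So did the tRNA synthetases Aars, at 632 and 545 CPM before and 407 and 424 after, and Nars, at 567 and 519 before and 370 and 376 after, with FDR of 0.211 and 0.109. Ddit3, the stress factor CHOP, was among the members whose groups overlapped, at 13.9 and 4.39 CPM before and 7.23 and 11.1 after. With the 4 E6 libraries alone, where 0.347% of the class fell, 15 of the 40 did.

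The 9 falls and 37 rises were chosen on E6, so a smaller median in WT is no result. All 9 of the falls had both WT libraries after adhesion below both before, against 14.1% of the class, and their median log2 fold change was -0.39 in WT and -0.88 in E6. Summed, they went from 886 and 767 to 476 and 488 CPM in E6 and from 1163 and 1144 to 814 and 921 CPM in WT. Of the 40 ATF4 targets 25 were below in WT, with a median of -0.37. For the 37 rises, 29 had both WT libraries after adhesion above both before, which is 78.4%, and the median was 0.66 in WT and 1.46 in E6. In WT no mRNA was called by edgeR, with 873 genes at an unadjusted p under 0.05 and 64 called by DESeq2. No gene passed the test of the difference over 8 libraries. These WT counts rest on single libraries: without WT after adhesion replicate 1, which stood apart, edgeR called 207 mRNAs in WT and 145 differences, and without replicate 2 it called 3550 and 3049.

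**Figure D4:**
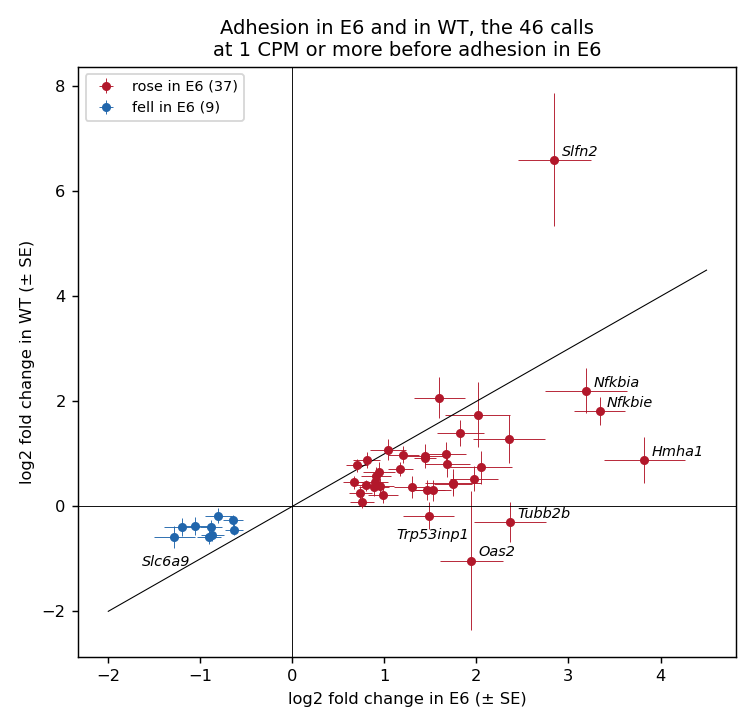
log2 fold change (± SE) on adhesion in E6 (x axis) against that in WT (y axis) for the 46 mRNAs called in E6 from 1 CPM or more before adhesion, with the line of equal change. The 9 falls are all negative in WT, and most of the 37 rises lie below the line, with a median of 1.46 in E6 and 0.66 in WT; the WT value of Slfn2 comes from 0 counts before adhesion and depends on the prior count.

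P4ha1 and Fgfbp1 were not on the ATF4 list. P4ha1, a collagen prolyl hydroxylase that hypoxia induces, measured 44.9 and 47.0 CPM before and 25.5 and 25.3 after. It was the sole member called of 19 hypoxia genes, against 0.0845% of the class that fell. The median of the 19 was -0.25, and 14 had both libraries after adhesion below both before, against 22.5% of the class. Fgfbp1, a carrier of fibroblast growth factors, measured 87.4 and 88.4 before and 60.5 and 56.8 after. Narf, the remaining fall, measured 11.6 and 9.04 CPM before and 4.59 and 4.66 after.

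In several groups of abundant metabolic genes no member was called, and they are read against the class, of which 58.4% had a negative log2 fold change. The 79 cytosolic ribosomal protein genes tested were all negative, from -0.34 to -0.06 with a median of -0.16, and 58 had both libraries after adhesion below both before, against 22.5% of the class. In WT their median was -0.30. Among 24 genes of cholesterol synthesis and uptake 22 were negative with a median of -0.19, and among 15 of fatty acid synthesis 13 were negative with a median of -0.22. Of these, 16 and 12 had both libraries after adhesion below both before. Scd2, a stearoyl-CoA desaturase, measured 460 and 327 CPM before and 245 and 249 after (FDR = 0.232). Among 18 glycolysis genes 13 were negative, with a median of -0.25. Of the 18, 13 had both libraries after adhesion below both before, against 22.5% of the class. Gapdh measured 2355 and 2413 CPM before and 1995 and 2011 after. The oxidative stress list of 20 genes had a median of -0.25, and 14 of them had both libraries after adhesion below both before. Of the 20, Gclc, Gclm and Hmox1 fell in the fit of the 4 E6 libraries alone, against 0.347% of the class. Gclc went from 240 and 261 to 144 and 142 CPM.

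For groups that describe the epithelial cell, the medians were -0.06 for 43 cell cycle genes, -0.07 for 26 extracellular matrix genes, -0.03 for 39 genes of cell adhesion and junctions and -0.07 for 15 mTEC genes at 1 CPM or more, and none of their members at that level was called. Fn1, the gene of fibronectin, measured 9836 and 8610 CPM before and 9373 and 9781 after, and Itgb1, the beta 1 integrin subunit, measured 2476 and 2527 before and 2426 and 2397 after. Of 19 genes of the unfolded protein response 15 were negative, with a median of -0.13 and no member called, among them the chaperones Hsp90b1 and Calr with log2 fold changes of -0.13 and -0.11. The heat shock genes Hsp90ab1 and Hspa8 were at -0.06 and -0.02. Of the mRNAs that the study singled out, Timp3, Tnc, Pvrl3, Fabp5, Scd1, Serpinb2, Lgals3bp and Ddit4 were not called on adhesion in E6, with log2 fold changes from -1.02 for Ddit4 to 0.59 for Lgals3bp. For Timp3, Fabp5, Tnc and Lgals3bp the study reported a difference between E6 and WT, which is another comparison than adhesion in E6. Tcf7 and Nfkbia, which the study also singled out, were called as rises and are described above. Aire, Fezf2 and Cd80, which the study measured by RT-qPCR, were too low here to be tested. The reference gene Hprt measured 95.8 and 105 CPM before and 92.9 and 89.6 after.

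**Figure D5:**
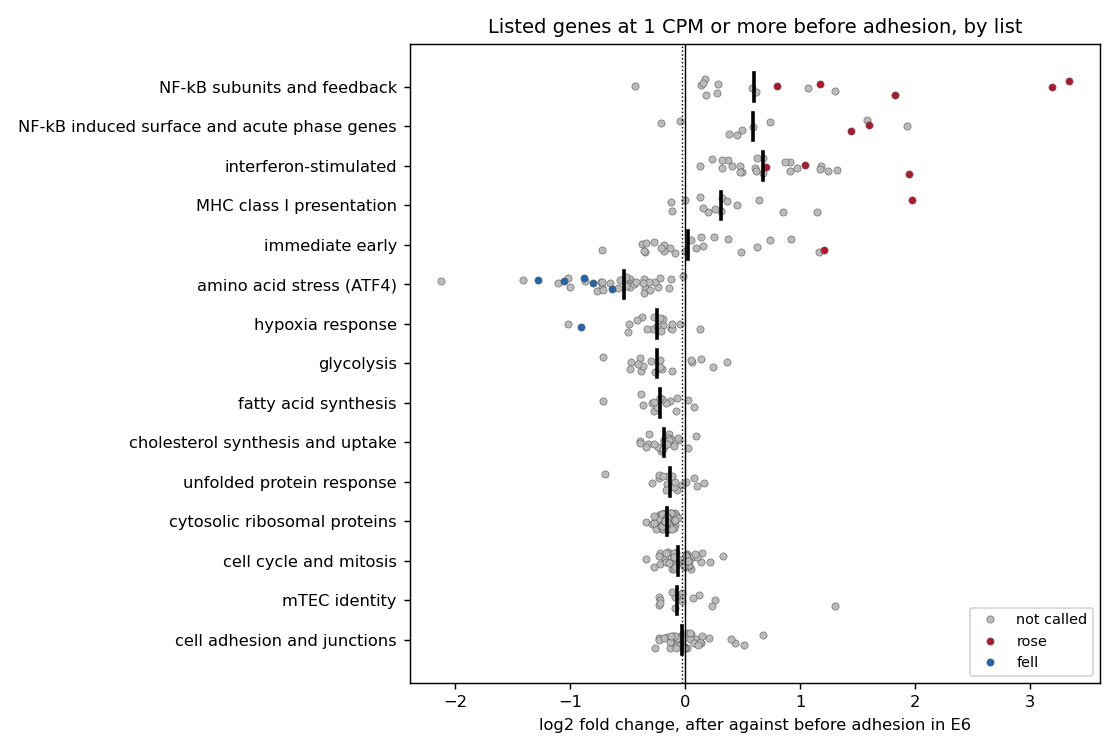
log2 fold change after against before adhesion in E6 (x axis) of the listed genes at 1 CPM or more before adhesion, 1 row per list, with each point a gene, the bar the list's median and the dotted line the median of the class at -0.03. The interferon-stimulated genes lie wholly right of 0 and the ATF4 targets and ribosomal proteins wholly left of it, while the called members, in red and blue, are few.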

How the data were processed

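Gene counts were analysed from 8 RNA-Seq libraries. The authors aligned paired-end reads to mm10 with STAR (2.5.0a in the processing notes) and deposited raw counts per gene from HTSeq, without normalization. The gene annotation and the strand setting are not given in the sources used here, and the labels and the study's methods name different library kits. Lines of HTSeq that name no gene were 21.2% to 33.3% of reads and were left out. In E6 before adhesion replicate 1, 18 symbols that had become dates were restored from the gene order. Genes passing edgeR's filterByExpr (4.0.16, R 4.3.3) were fitted with TMM scaling over all 8 libraries, 1 mean per condition, and tested by quasi-likelihood with Benjamini-Hochberg adjustment. DE mRNAs had an FDR under 0.05 and a fold change of at least 1.5. The SE is of the log2 fold change. The fit was tested on simulated data with equal spread in all genes and libraries and changes only in well-expressed genes. That simulation does not cover calls under 1 CPM or a library that stands apart. Named genes were the 15 largest rises and up to 15 falls at 1 CPM or more, the 10 highest after adhesion under 1 CPM, called members (at most 5) of each list or otherwise its 2 most abundant, those the study singled out, and 2 called genes on each side of 1 CPM. The largest rises and the falls at 1 CPM or more were taken from calls without overlap between the E6 conditions. Further list members are named with their values as examples. The classes, lists and rules were chosen with earlier results of these data known. Alternatives were DESeq2 (1.42.0), other size factors, no filter, no fold limit, other class limits, the E6 libraries alone, a replicate block and leaving out libraries. Gene positions come from RefSeq (GRCm38.p6), which matched 11630 of the 11672 tested genes and all 234 DE mRNAs. HTSeq drops reads that map to several places, 11.7% to 17.5% here, so members of near-identical families are uncertain.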

Additional observations from a re-analysis of the deposited data

Results flagged for a closer look

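In 3 DE mRNAs of E6, both E6 libraries after adhesion lay above both before while both WT libraries after adhesion lay below both before. Oas2 was at 2.28 and 1.27 CPM before and 7.60 and 6.32 after in E6, against 0.0608 and 0.0740 before and 0 and 0.0496 after in WT, which is at most 1 count per library, and the log2 fold changes differed by 2.98. Rasgrp2, an activator of Rap1 in blood cells, was at 0 and 0.0529 CPM before and 1.16 and 1.23 after in E6, against 0.182 and 0.0740 before and 0.0665 and 0.0496 after in WT, a difference of 6.06. Trp53inp1 was at 20.8 and 18.1 CPM before and 17.7 and 16.0 after in WT, a difference of 1.66. The test of the difference across all genes had an FDR of 0.988 or more for each of the 3, and for Oas2 and Rasgrp2 the WT values are at or under the floor of 3 counts.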

How the results depend on the processing

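The number of DE mRNAs in E6 depended on which libraries set the spread. In each alternative fit every one of the 234 kept its sign, which their selection on these same libraries without overlap made likely beforehand. The counts below are all calls, then rises under 1 CPM, rises from 1 CPM and falls from 1 CPM, which were 234, 188, 37 and 9. They were 537, 319, 181 and 37 with the 4 E6 libraries alone, 575, 335, 201 and 39 without the 2 WT co-culture libraries, and 132, 110, 19 and 3 with a replicate block. DESeq2 called 57 rises and 19 falls from 1 CPM, 64 mRNAs in WT and 3 differences between E6 and WT. Without a filter the falls numbered 5. A replicate block in the 4 E6 libraries alone, added after seeing the data, gave 523, 309, 177 and 37. Over the fits that each left out 1 library, all calls ranged from 0 to 643, rises under 1 CPM from 0 to 400, rises from 1 CPM from 0 to 204, falls from 0 to 42, differences between E6 and WT from 0 to 3049 and calls in WT from 0 to 3550. Each of the 4 E6 libraries left out gave 0 calls in E6, where a lone library was assumed to vary like the others. Without WT after adhesion replicate 1 the counts were 643, 400, 204 and 39, and without replicate 2 they were 629, 398, 189 and 42. Without WT before adhesion replicate 1 they were 135, 121, 14 and 0, and without replicate 2 they were 134, 120, 14 and 0. Other size factors and class limits of 0.5 or 2 CPM kept each count within 1.5 times, and no fold limit left 234. Same-numbered libraries deviated together with r from -0.079 to 0.222 over 9768 genes, so the numbers were not shown to pair the samples. In E6 the number follows culture time, whereas in WT it does not. The replicate block over 8 libraries is therefore not a block on culture time. A gene at 0 counts before adhesion has no fold beyond the bound that 3 counts allow, and that bound covers counting error only.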

Other observations

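Hes1, a target of Notch signalling, was chosen after its values were seen. It measured 37.3 and 31.1 CPM before and 54.7 and 176 CPM after adhesion in E6, and 30.6 and 35.1 before and 55.1 and 200 after in WT (FDR = 0.574 in E6 by edgeR over 8 libraries, 0.00656 in the 4 E6 libraries alone). In both lines the higher value after adhesion was in replicate 2, which was the 12 h culture in E6 and the 24 h culture in WT. Dusp1, a phosphatase of MAP kinases, had the same order, with 33.3 and 62.0 CPM after adhesion in E6 and 37.0 and 106 in WT. Rn45s, the ribosomal RNA precursor, measured 1593 and 1113 CPM before and 825 and 5339 after adhesion in E6, and its level in replicate 2 after adhesion was above that in each of the other 7 libraries.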
